A study of Homo sapiens with 6 samples.

Results

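The 10 genes described here encode transcription factors of the myeloid lineage: CEBPA, CEBPB, CEBPD, CEBPE, SPI1, GFI1, IRF8, RUNX1, MYB and SOX4. They were chosen by symbol, and all 10 were found among the 60660 gene IDs of each library. RNA-seq was done on the human leukaemia line OCI-AML3, which was derived from acute myeloid leukaemia, with 3 libraries overexpressing SLC2A3, the gene of the glucose transporter GLUT3, and 3 libraries carrying the empty lentiviral vector. Cells of both groups were grown with 250 µM vitamin C. Without libraries lacking the vitamin, these values cannot show whether a difference between groups depends on it. The labels give neither the promoter that drives SLC2A3 nor whether the cells were a clone or a pool, and they do not say that the 3 libraries of a group came from separate cultures. P-values therefore measure the spread between these libraries, which may be technical.

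Myeloid cells are made from progenitors under a small circuit of transcription factors. PU.1, the ETS-family product of SPI1, opens myeloid genes, and C/EBPα, the basic leucine zipper product of CEBPA, is needed to form granulocyte and monocyte progenitors. GFI1, a zinc finger repressor, favours granulocytes, whereas IRF8 favours monocytes and dendritic cells. RUNX1, the DNA-binding subunit of core-binding factor, and MYB act earlier, and SOX4, an HMG-box factor of progenitors, is silenced as myeloid cells mature. In mouse cells C/EBPα has been shown to repress Sox4.

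Values are given as normalised reads, the reads of a gene after division by a factor of its library. Library totals lay between 31054462 and 35770556 reads. SLC2A3 stood at 4056, 3716 and 4054 normalised reads in the SLC2A3 libraries and at 1194, 1183 and 1257 in the empty vector libraries, which fits the labels. Of 10 myeloid and leukaemia markers, 8 averaged more than 100 normalised reads. Their summed level was 32221 to 32888 normalised reads in the SLC2A3 libraries and 33855 to 34433 in the empty vector libraries, without overlap. Of the 9 tested, 0 passed in limma and 7 had a negative log2 fold change, as did 13935 of all 28015 genes tested. KIT had at most 2 reads in any library and CD68 averaged 25.8 ± 3.51 and 31.6 ± 5.65 normalised reads in the SLC2A3 and empty vector groups (SD, n = 3 each). The globin genes HBA1 and HBB, the T cell genes CD3D and CD3E and the B cell gene MS4A1 had no reads in any library, which allows up to 3 reads per library for each. Other markers of these lineages had reads. The 5 B cell markers summed to 1001 to 1065 normalised reads in the SLC2A3 libraries and 983 to 1041 in the empty vector libraries. Sums for 5 T and NK cell markers were 171 to 191 and 163 to 186 in the same order. Those for 4 megakaryocyte markers were 572 to 659 and 606 to 696. In these lists 2, 1 and 2 markers averaged more than 100. The 6 erythroid markers summed to at most 26.5. The summed level of 9 epithelial and fibroblast markers was low, at 100.4 to 124 normalised reads in the SLC2A3 libraries and 72.3 to 82.0 in the empty vector libraries, and no marker passed the test. The noncoding RNA RN7SL1 ranged from 1922 to 6026 normalised reads in the SLC2A3 libraries and from 538 to 1812 in the empty vector libraries, and replicate 2 was the highest of each group. RN7SL1 was 3.33-fold higher in the SLC2A3 group, with no overlap (limma adjusted p = 0.000861).

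SOX4 was the only member past the threshold, an adjusted p under 0.05 in limma. Its level was 17378, 16733 and 17802 normalised reads in the SLC2A3 libraries and 13453, 14888 and 14329.9 in the empty vector libraries. Every SLC2A3 library lay above every empty vector library. The means were 17305 ± 539 and 14223 ± 723 normalised reads (SD, n = 3 each), a 1.22-fold rise. The log2 fold change was 0.28 (SE 0.041, 95% interval 0.20 to 0.37, limma adjusted p = 0.00016). Among all 28015 genes tested, 1.49% were called, 0.692% higher and 0.8% lower, against 1 of the 10 members. Abundant genes were called more often, and of 2423 genes with a mean of at least 3000 normalised reads, as 9 of the members have, 8.13% were called.

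**Figure D1:**
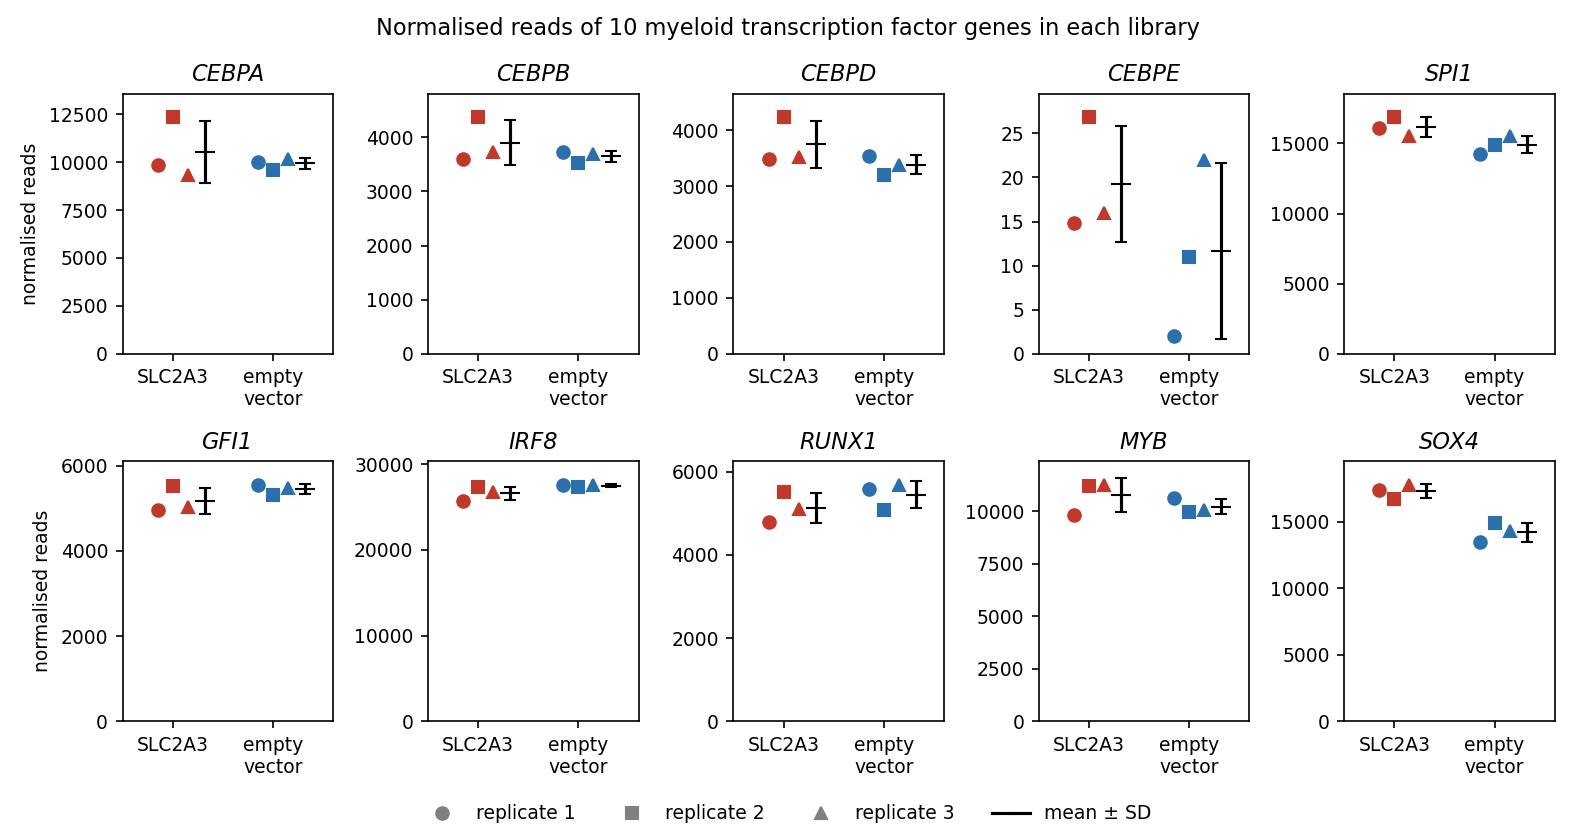
Normalised reads of each member in every library, with the SLC2A3 group to the left of the empty vector group in each panel and the mean ± SD (n = 3) beside the points. The 3 SLC2A3 libraries lie above the 3 empty vector libraries for SOX4, while CEBPA, CEBPB and CEBPD are set apart by SLC2A3 replicate 2.

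The SOX4 rise did not rest on any 1 library. It passed the threshold in 19 of 19 other settings, with log2 fold changes of 0.24 to 0.34, and in each of the 6 fits that left out a library (limma adjusted p at most 0.0149). RN7SL1 was higher in the SLC2A3 group too, and its part in the SOX4 result was not tested. Within the SLC2A3 group, SOX4 was lowest in replicate 2, the library with the most RN7SL1. In the empty vector group, replicate 2 had the most RN7SL1 (1812 normalised reads) and the highest SOX4. Without both libraries labelled replicate 2, the SOX4 log2 fold change was 0.34 (limma adjusted p = 1.22e-09). That fit was chosen after the values were seen, and it omits the SLC2A3 library lowest and the empty vector library highest for SOX4. SOX4 is a single-exon gene (ENSG00000124766.7, chromosome 6, 21592768 to 21598619, plus strand, GRCh38 in GENCODE 29). An antisense gene, ENSG00000283480, overlaps it, but had 2 reads in the SLC2A3 group and 0 in the empty vector group. Its nearest relative of the SOXC subgroup with appreciable reads, SOX12, averaged 3933 ± 131 and 3680.0 ± 65.6 normalised reads (SD, n = 3 each) in the SLC2A3 and empty vector groups. SOX12 did not pass the test, with a log2 fold change of 0.10 (95% interval 0.00 to 0.19, limma adjusted p = 0.45), although its groups did not overlap. SOX11, the other relative in that subgroup, had between 0 and 3.20 normalised reads per library.

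Short stretches before the RefSeq starts of 4 members are shown because each holds a motif of a factor family in this circuit, so that the reader can see where the circuit could meet its own genes. Motifs were searched on both strands of the 250 bases before the start of 8 members and of 27305 RefSeq genes. They were TTGCNNAA for C/EBP, AGGAAG for PU.1 and other ETS factors, TGTGGT for RUNX, AACNGTC for MYB, GAAA repeated after any 2 bases for IRF, AAATCA for GFI1 and ACAAAG for SOX, with CCAAT boxes as a promoter element. Capitals mark the matches, which can be on either strand.
SOX4: gAGGAAGcgttggttacagcagctgATTGG
CEBPE: gAGGAAGgaaaAGGAAGcagagcagagggg
IRF8: cTGTGGTtgtatctgcctgaaaggaaaggg
MYB: tCTTTGTttgatggcatctctgtttacaga

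These lie at chr6:21593669-21593698 (plus strand), chr14:23119267-23119296 (minus strand), chr16:85902695-85902724 (plus strand) and chr6:135181274-135181303 (plus strand) on GRCh38.p14, and the sequences are RefSeq's. The SOX4 stretch holds an ETS-type match and a CCAAT box read on the other strand. Across its 250 bases SOX4 had 4 CCAAT matches, RUNX1 had 2 in its own window, and no other window had any. At least 4, a cutoff taken from the SOX4 count itself, were found in 0.930% of all promoters and at least 1 in 33.0%. AGGAAG was found in 28.7% of promoters, TGTGGT in 10.9% and ACAAAG in 13.7%, so a match by itself is common. The C/EBP motif, present in 9.13% of promoters, was in none of the 8 windows, and neither were the MYB, IRF and GFI1 motifs, present in 5.73%, 3.07% and 11.7%. The RefSeq starts of SOX4, CEBPE and IRF8 used here lie 983, 361 and 4027 bases inside the gene as GENCODE 29 has it. That of RUNX1 lies 1115968 bases inside, so its window is not at the start near which LINC01436 lies. A match is a description of the letters, not of binding.

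The C/EBP family came next, with no member past the threshold. On GRCh38 in GENCODE 29, CEBPA lies on chromosome 19 (33299934 to 33302564, minus strand), CEBPB on chromosome 20 (50190734 to 50192689, plus strand), CEBPD on chromosome 8 (47736909 to 47739086, minus strand) and CEBPE on chromosome 14 (23117304 to 23119616, minus strand). CEBPA stood at 9859, 12349 and 9315 normalised reads in the SLC2A3 libraries and at 9997, 9605 and 10186 in the empty vector libraries. The groups overlapped, and replicate 2 was the only SLC2A3 library above all empty vector libraries. The log2 fold change was 0.07 (95% interval -0.06 to 0.20, limma adjusted p = 0.749). CEBPB, a factor of monocytes and of stress-induced granulocyte production, had 3601, 4374 and 3722 normalised reads in the SLC2A3 libraries, against 3724, 3525 and 3693 in the empty vector libraries. CEBPD, an inducible factor of inflammation, had 3492, 4236 and 3527 normalised reads in the SLC2A3 libraries, against 3549, 3207 and 3385 in the empty vector libraries. Both overlapped between groups, and their log2 fold changes were 0.09 and 0.15 (limma adjusted p = 0.599 and 0.314). The 95% interval was -0.03 to 0.21 for CEBPB and 0.02 to 0.27 for CEBPD, so that of CEBPD excluded 0.

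The same SLC2A3 library, replicate 2, was therefore the highest of all 6 for each of the single-exon genes CEBPA, CEBPB and CEBPD, by 0.28, 0.22 and 0.25 on the log2 scale above the mean of its gene. It was also the highest for SPI1 and CEBPE, which have more than 1 exon, so for 5 of the 10 members, but not for the single-exon SOX4. That library also had the most RN7SL1. Over 169 single-exon protein-coding genes with a mean of at least 50 normalised reads, its median log2 deviation was 0.062, against -0.034 and 0.0035 in the other SLC2A3 libraries and -0.035 to 0.0031 in the empty vector libraries. Over 11267 multi-exon genes its median was 0.0045. The part of these properties in the C/EBP values was not tested. Without that library the CEBPA log2 fold change was -0.05, that of CEBPB was 0.01 and that of CEBPD was 0.06, and none passed (limma adjusted p = 0.739, 0.988 and 0.787).

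**Figure D2:**
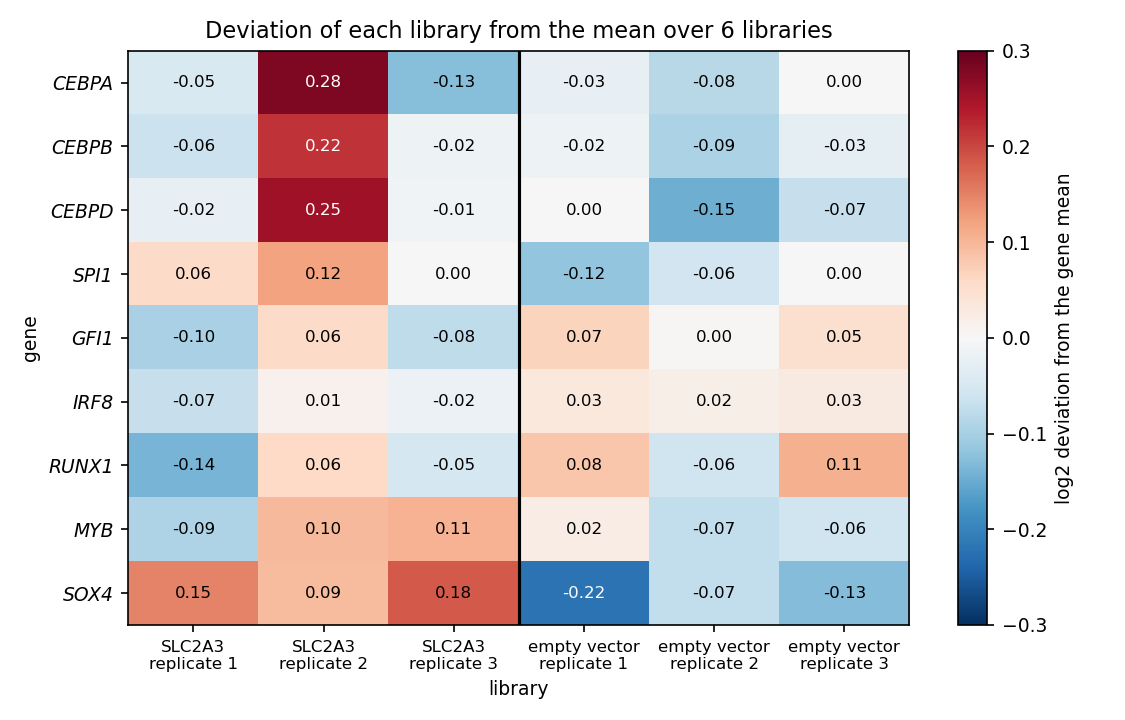
Log2 deviation of each library (columns, the SLC2A3 libraries left of the line) from the mean of each gene over the 6 libraries, for the 9 members with over 3000 normalised reads. SLC2A3 replicate 2 stands at 0.28, 0.22 and 0.25 for CEBPA, CEBPB and CEBPD, and SOX4 is positive in the 3 SLC2A3 libraries and negative in the 3 empty vector libraries.

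CEBPE, which drives the late, secondary-granule stage of granulocyte maturation, was close to silent. Its level was 14.9, 26.9 and 16.0 normalised reads in the SLC2A3 libraries and 2.04, 11 and 22.0 in the empty vector libraries, from 59 and 35 reads in all. The groups overlapped, and empty vector replicate 1 was the lowest. The log2 fold change of 1.05 had a 95% interval of -0.16 to 2.26 (limma adjusted p = 0.517), so this depth cannot show whether CEBPE differed. The ratio of the group means was 1.65, and edgeR gave a log2 fold change of 0.71. Without empty vector replicate 1 the limma value was 0.24, and without empty vector replicate 3 it was 1.70. Among the 10 secondary and tertiary granule genes listed as C/EBPε targets, 5 were too low to be tested, with LTF, LCN2, BPI and OLFM4 nearly without reads and CRISP3 without any.

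SPI1 (chromosome 11, 47354860 to 47378576, minus strand) leaned higher but did not pass. It had 16135, 16876 and 15505.2 normalised reads in the SLC2A3 libraries and 14282, 14915 and 15505.3 in the empty vector libraries. The groups met at a single point, SLC2A3 replicate 3 and empty vector replicate 3. The means were 16172 ± 686 and 14901 ± 612 normalised reads (SD, n = 3 each), and the log2 fold change was 0.12 (95% interval 0.03 to 0.20, limma adjusted p = 0.182). None of the 19 other settings called it, with adjusted p of 0.0532 to 0.543.

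IRF8 (chromosome 16, 85898803 to 85922609, plus strand), the member with the most reads, had 25749.6, 27288 and 26719 normalised reads in the SLC2A3 libraries and 27613, 27345 and 27526 in the empty vector libraries. The groups did not overlap, the SLC2A3 libraries being lower, but the log2 fold change of -0.05 did not pass (95% interval -0.12 to 0.02, limma adjusted p = 0.665). In all, 2 of the 10 members had groups that did not overlap, IRF8 and SOX4, where 16.3% of all genes tested did so, 8.04% higher and 8.27% lower, and 38.1% of those with a mean of at least 3000. GFI1 (chromosome 1, 92474762 to 92486876, minus strand) had 4959.6, 5518 and 5030.3 normalised reads in the SLC2A3 libraries, against 5554, 5319 and 5485 in the empty vector libraries, and the groups overlapped. Its log2 fold change was -0.08 (limma adjusted p = 0.575).

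RUNX1 (chromosome 21, 34787801 to 36004667, minus strand) had 4793, 5506 and 5091 normalised reads in the SLC2A3 libraries and 5592, 5069 and 5689 in the empty vector libraries. The groups overlapped, replicate 2 being the highest SLC2A3 library and the lowest empty vector library. The log2 fold change was -0.09 (limma adjusted p = 0.568), and it was -0.19 (limma adjusted p = 0.0323) without both libraries labelled replicate 2, a fit chosen after the values were seen. MYB (chromosome 6, 135181315 to 135219173, plus strand), which sustains progenitor growth, had 9827, 11205 and 11265 normalised reads in the SLC2A3 libraries, against 10633, 9958 and 10047 in the empty vector libraries. Its groups overlapped, with SLC2A3 replicate 1 the lowest of all 6, and the log2 fold change was 0.07 (limma adjusted p = 0.599).

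For the 8 abundant members that were not called, the 95% intervals together ran from -0.20 to 0.27 on the log2 scale, or 0.873-fold to 1.21-fold. The median log2 fold change of the 10 members was 0.08, with 7 positive and 3 negative, beside a median of 0.0014 over all genes tested. Over genes with a mean of at least 3000 the median was -0.010, with 1096 positive and 1327 negative. SLC2A3 replicate 2 was the highest library for 5 of the 7 positive members. At an unadjusted p under 0.05 in limma there were 3 members, SOX4, SPI1 and CEBPD, against 11.8% of all genes tested and 35.2% of those with a mean of at least 3000.

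**Figure D3:**
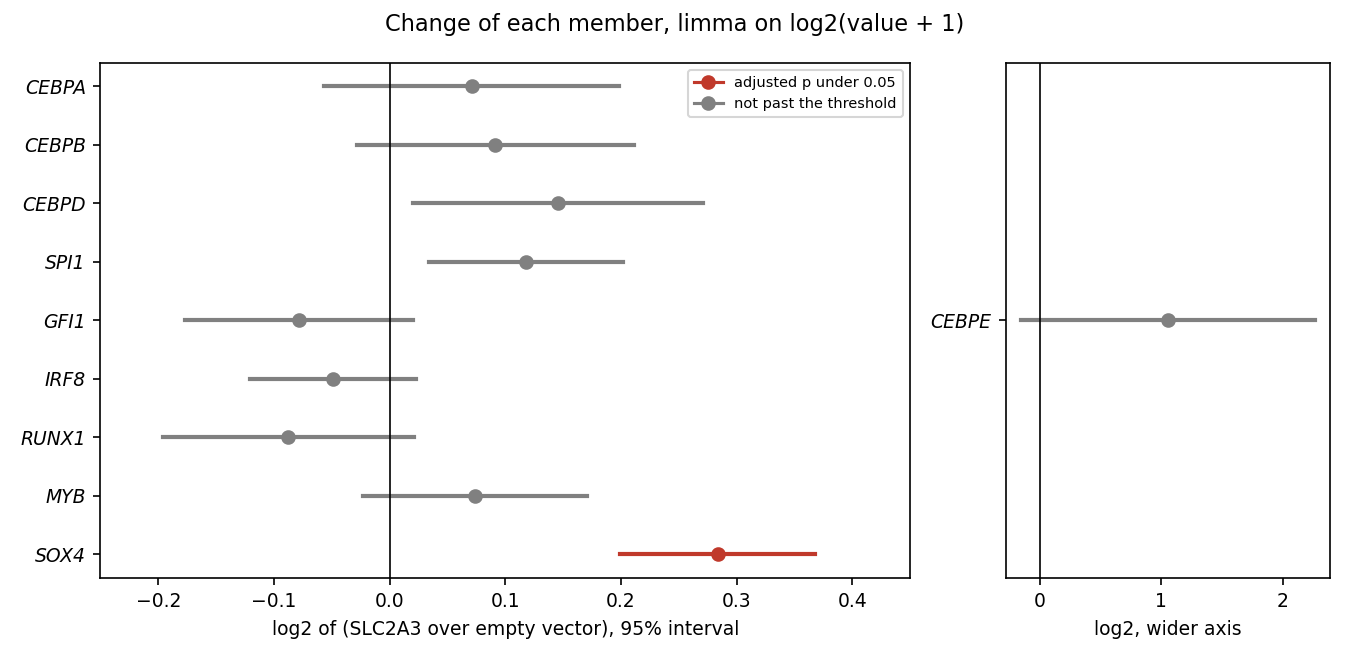
Log2 fold change of each member (SLC2A3 over empty vector, points) with its 95% interval (lines) from limma, red where the adjusted p was under 0.05. The interval of SOX4 runs from 0.20 to 0.37, and CEBPE is drawn on a wider axis because its interval runs from -0.16 to 2.26.

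Levels of different members were compared per kilobase of annotated exon. In the SLC2A3 group the order was SPI1, IRF8, CEBPA, SOX4, CEBPB, MYB, CEBPD, GFI1, RUNX1 and CEBPE, with SPI1 at 7816 ± 332 and CEBPE at 12.4 ± 4.26 normalised reads per kb (SD, n = 3). In the empty vector group SPI1 stood at 7202 ± 296 and CEBPE at 7.52 ± 6.44, and GFI1 and CEBPD changed places. SOX4 followed CEBPA in both groups, at 2957 ± 92.1 in the SLC2A3 group and 2431 ± 124 normalised reads per kb in the empty vector group (SD, n = 3 each). CEBPB and MYB did not differ beyond their spread in either group, nor did GFI1 and CEBPD, and MYB and CEBPD overlapped in the SLC2A3 group. RUNX1 was divided by 15574 bases of exon from many alternative transcripts. Its level per kb, 329 ± 23.0 and 349.9 ± 21.4 in the SLC2A3 and empty vector groups (SD, n = 3 each), is therefore a low estimate. Exon length also exceeded the longest annotated transcript for MYB (5493 against 3672 bases), IRF8 (5162 against 3030), SPI1 (2069 against 1403) and GFI1 (3301 against 2855). For SOX4 and the C/EBP genes both lengths were equal. The order, including that of SOX4 and MYB, may thus differ with another divisor.

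**Figure D4:**
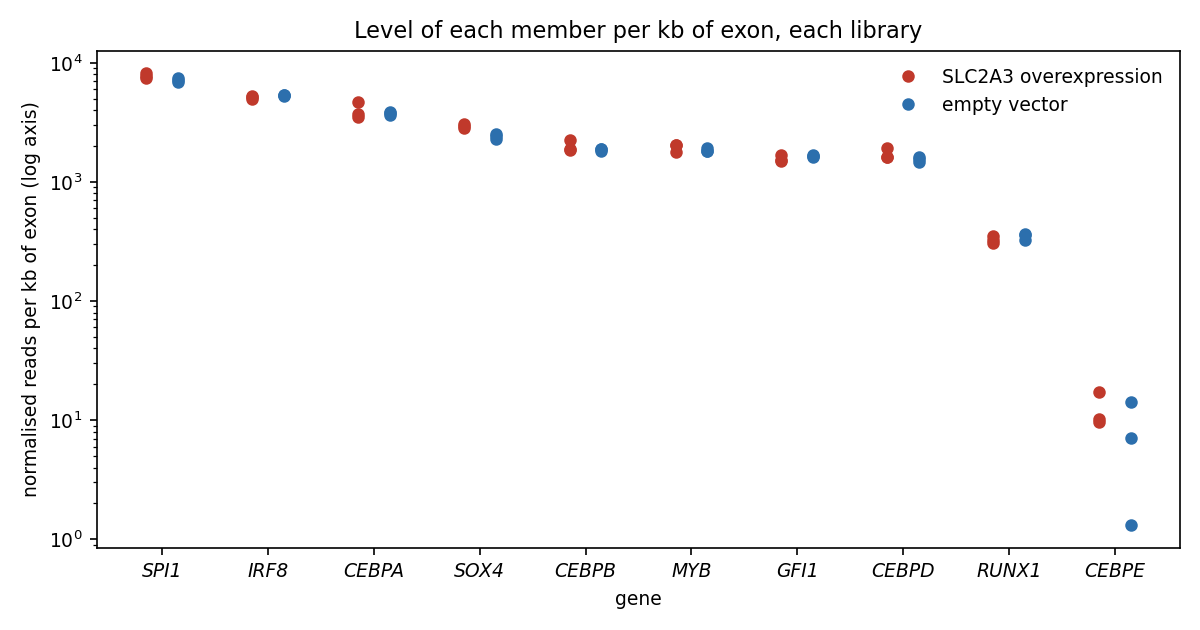
Normalised reads per kb of exon (log axis) of each member in each library, SLC2A3 libraries in red left of empty vector libraries in blue. SPI1 is the highest and CEBPE the lowest in both groups, and SOX4 stands at 2957 and 2431 on average in the SLC2A3 and empty vector groups.

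Noncoding genes beside the members had few reads or no called change. CEBPA-DT, which starts 293 bases from CEBPA on the other strand, had 794 ± 22.1 normalised reads in the SLC2A3 group and 781 ± 89.4 in the empty vector group (SD, n = 3 each), with a log2 fold change of 0.03 (limma adjusted p = 0.935). LINC01436, which starts 671 bases from the start of RUNX1 on the other strand, had 22.3, 15.3 and 16.0 normalised reads in the SLC2A3 libraries and 6.11, 2.0 and 8.01 in the empty vector libraries. Its groups did not overlap, but it did not pass (log2 fold change 1.69, limma adjusted p = 0.158). CEBPB-AS1 had 60 reads in the SLC2A3 group and 96 in the empty vector group and overlaps CEBPB, and MYB-AS1 had 55 and 49. Whether counting used strand is not stated, so reads of a member and of its antisense gene cannot be told apart where their exons overlap.

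The genes whose profile over the 6 libraries lay closest to that of SOX4, by the root mean square difference of centred log2 values among 13276 others, were NAT8L at 0.030, SPEN-AS1 at 0.031 and ENSG00000237550 at 0.032. Because they were picked for this likeness, their higher level in the SLC2A3 group follows from the choice and is no separate result. NAT8L rose 1.21-fold (limma adjusted p = 0.0073) but was not called without empty vector replicate 1 or without SLC2A3 replicate 3 (limma adjusted p = 0.0628 and 0.0737). ENSG00000237550, named RPL9P9 in GENCODE 29, is a processed pseudogene that may share reads with its parent gene, and it rose by a log2 fold change of 0.27 (limma adjusted p = 0.000307). SPEN-AS1 did not pass, at 289 ± 5.90 and 247 ± 13.9 normalised reads in the SLC2A3 and empty vector groups (SD, n = 3 each, limma adjusted p = 0.446).

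Partners, relatives and known targets of the members were followed in 11 lists of 116 genes, of which 107 could be tested. In these lists 5 genes rose, 4 fell and 98 did not pass, beside a median log2 fold change of -0.02. The 9 called genes make 8.41% of those tested, above the 1.49% of all genes. Among genes with a mean of at least 3000 normalised reads 8.13% were called. The lists are not held to that level, and the called KLF4 and EGR1 lie far below it, so that share is no matched background.

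**Figure D5:**
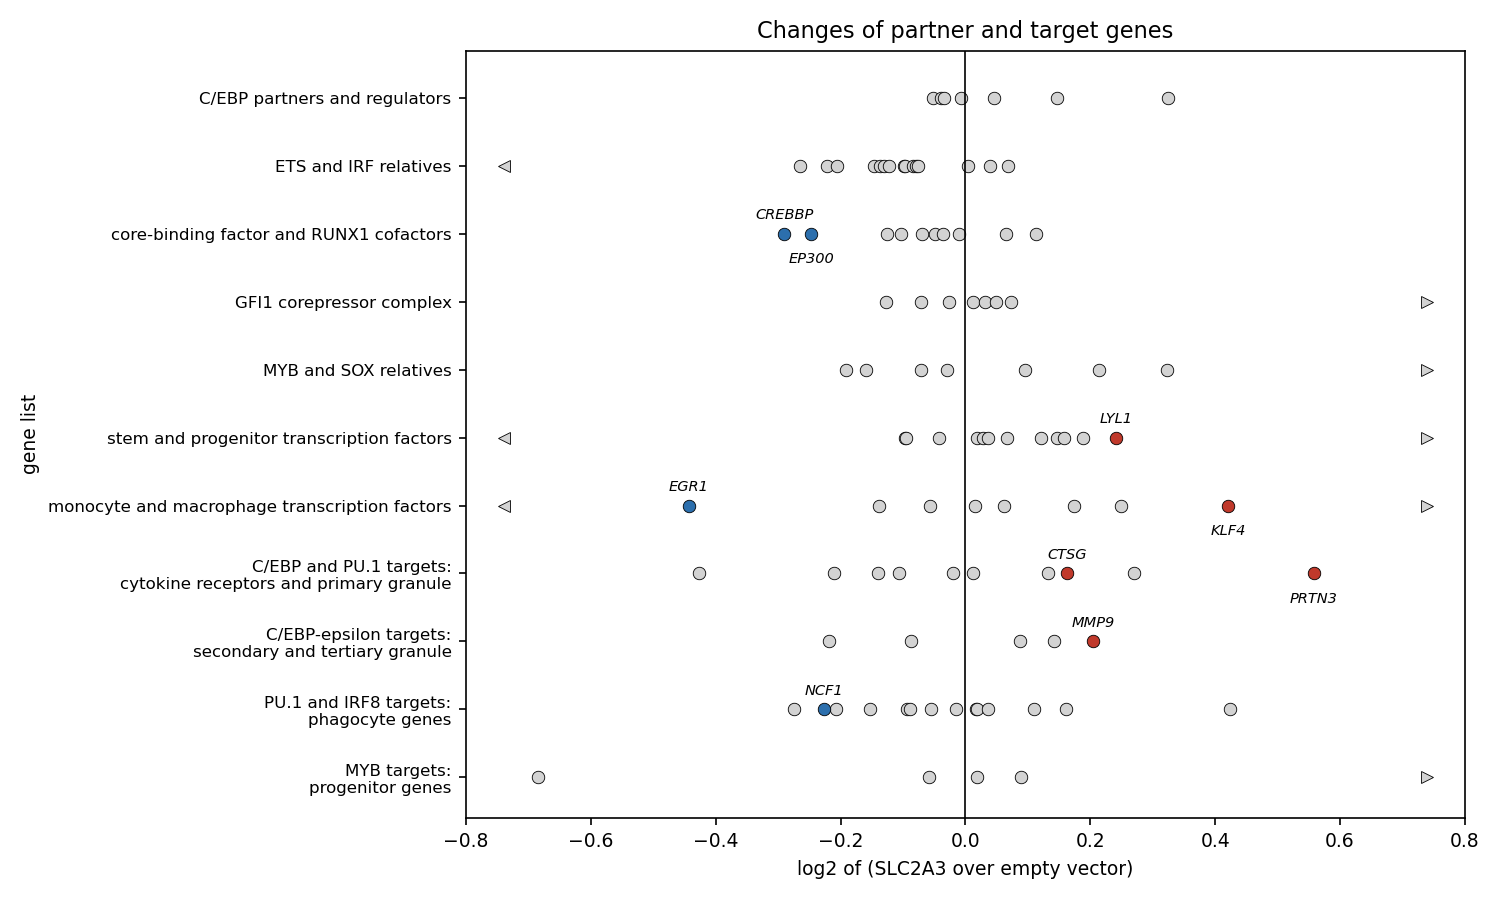
Log2 fold change (SLC2A3 over empty vector) of each of 107 tested genes in 11 lists of partners and targets, red where the gene rose, blue where it fell and grey where it did not pass, with triangles at the edge for 8 grey genes beyond 0.7. The called genes are spread over 6 lists, and both directions occur.

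The clearest changes among cofactors were in the paired acetyltransferases CREBBP and EP300, coactivators that MYB and RUNX1 recruit. CREBBP had 2974, 2964 and 3107 normalised reads in the SLC2A3 libraries, against 3646, 3488 and 3939 in the empty vector libraries. EP300 had 3925, 3747 and 3805 normalised reads in the SLC2A3 libraries, against 4735, 4340.5 and 4552 in the empty vector libraries. Neither overlapped between groups, and they fell by 0.29 and 0.25 on the log2 scale (limma adjusted p = 0.00222 and 0.00476). CREBBP passed in 19 of 19 other settings and EP300 in 18, the exception being the fit without SLC2A3 replicate 3 (limma adjusted p = 0.0536). The other 8 genes of the core-binding factor list did not pass, and the list median was -0.06. CBFB, the partner that stabilises RUNX1 on DNA, had a log2 fold change of -0.07, RUNX2 of -0.10 and RUNX3 of 0.07 (limma adjusted p = 0.801, 0.434 and 0.767).

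None of the 7 C/EBP partners and regulators, 16 ETS and IRF relatives, 8 genes of the GFI1 corepressor complex and 8 tested MYB and SOX relatives passed in limma, while 2, 3, 1 and 0 of them had an unadjusted p under 0.05, as did 11.8% of all genes tested. In the same lists edgeR called 1, 0, 0 and 0 genes and DESeq2 called 1, 1, 0 and 0, namely ATF4, a stress-response partner of C/EBP factors, in both and the ETS repressor ETV6 in DESeq2. The medians of these lists were -0.01, -0.11, 0.02 and 0.03 on the log2 scale, and 13 of the 16 ETS and IRF relatives were negative. ATF4 had a log2 fold change of 0.15 (limma adjusted p = 0.0668). CEBPG, a dimer partner of the other C/EBP proteins, had 1995, 2268 and 1989 normalised reads in the SLC2A3 libraries and 1951, 2096 and 1997 in the empty vector libraries. Among paralogs, MYBL2, the cell-cycle relative of MYB, averaged 11189 ± 147 and 11749 ± 197 normalised reads (SD, n = 3 each) in the SLC2A3 and empty vector groups (log2 fold change -0.07, limma adjusted p = 0.503). MYBL1 had a log2 fold change of -0.03, and GFI1B, the erythroid and megakaryocytic relative of GFI1, had at most 5.34 normalised reads in any library.

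Of 14 tested stem and progenitor factors, LYL1, a basic helix-loop-helix factor, rose 1.19-fold. It had 2615, 3038 and 2500.2 normalised reads in the SLC2A3 libraries and 2191, 2353 and 2331 in the empty vector libraries, and the groups did not overlap (limma adjusted p = 0.0445). Its call held in only 1 of 6 fits that left out a library, that without empty vector replicate 2, and the adjusted p was 0.268 without SLC2A3 replicate 2. IKZF1, a zinc finger factor of the same list, had a log2 fold change of 0.15 without overlap between groups (limma adjusted p = 0.131), and DESeq2 called it higher, while edgeR did not. Among 10 monocyte and macrophage factors, KLF4, a zinc finger factor of monocytes, rose 1.34-fold and EGR1, an immediate early factor, fell by 0.44 on the log2 scale. KLF4 had 447, 411 and 468 normalised reads in the SLC2A3 libraries and 328, 318 and 342 in the empty vector libraries (limma adjusted p = 0.0229). It was called in 1 of the 6 fits without a library, that without SLC2A3 replicate 2, with adjusted p up to 0.164 in the others. EGR1 had 677, 724 and 713 normalised reads in the SLC2A3 libraries, against 905, 922 and 1055 in the empty vector libraries (limma adjusted p = 0.00156), and was called in all 6.

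Targets of the members moved in both directions. Of 10 cytokine receptor and primary granule genes controlled by C/EBP factors and PU.1, the granule proteases PRTN3 and CTSG rose 1.47-fold and 1.12-fold (limma adjusted p = 1.67e-10 and 0.00653), 8 did not pass, and the list median was -0.0042 on the log2 scale. PRTN3 had 33003, 36296 and 32866 normalised reads in the SLC2A3 libraries, against 22774, 23321 and 23238 in the empty vector libraries. CTSG had 143707, 140261 and 134428 normalised reads in the SLC2A3 libraries, against 121994, 130253 and 121501 in the empty vector libraries. Neither overlapped between groups, and both were called in 19 of 19 other settings. The receptor genes CSF1R and IL6R had log2 fold changes of -0.43 and -0.14 and missed the threshold in limma (adjusted p = 0.0587 and 0.0748), while edgeR and DESeq2 called both lower. AZU1, which lies in the same granule protease cluster as PRTN3 on chromosome 19, had a log2 fold change of 0.01. ELANE, the neutrophil elastase gene of the same cluster, had one of 0.13 without overlap between groups (limma adjusted p = 0.0954), and DESeq2 called it higher, while edgeR did not. The G-CSF receptor gene CSF3R had a log2 fold change of -0.02. Of 5 tested secondary and tertiary granule genes, MMP9, a gelatinase, rose 1.15-fold, with 5667, 5765 and 5645 normalised reads in the SLC2A3 libraries and 5043, 4994 and 4784 in the empty vector libraries (limma adjusted p = 0.0118). MMP9 lost its call without SLC2A3 replicate 3 and without empty vector replicate 3 (limma adjusted p = 0.0723 and 0.116).

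Of 14 phagocyte genes driven by PU.1 and IRF8, NCF1, a cytosolic subunit of the NADPH oxidase, fell by 0.23 on the log2 scale (limma adjusted p = 0.00541). It had 7276, 7435 and 6648 normalised reads in the SLC2A3 libraries and 8192, 8498 and 8272 in the empty vector libraries, and was not called without SLC2A3 replicate 3 (limma adjusted p = 0.109). NCF1 has near-identical pseudogene copies, so the reads given to it are uncertain. The other 13 did not pass, and the list median was -0.03. Of 7 progenitor genes listed as MYB targets, 5 were tested and 0 passed in limma, with 0 at an unadjusted p under 0.05, and edgeR and DESeq2 called 0 of the 4 and 6 to which they gave a value. KIT and PROM1 were too low to be tested.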

How the data were processed

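The deposited signal of a gene is its read count scaled by a factor of the library. The values show this: 100% were whole multiples of a step within 0.001 reads, and the factors matched size factors that DESeq2 gives for the recovered reads. BWA, TopHat2 and hg38 are listed, without roles, per the submitters' processing notes; the annotation and the use of strand in counting are not given in the sources used here. Symbols came from a gene name table and GENCODE 29, for 60641 of 60660 IDs, and coordinates and exon lengths from GENCODE 29, which may differ from the authors' annotation.

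Group was tested on log2(value + 1) with limma 3.58.1 (R 4.3.3), using a mean-variance trend. The fit took the 28015 genes that reached 1 in 3 or more libraries, and Benjamini-Hochberg adjusted p under 0.05 was the threshold. Fold changes of low genes on this scale depend on the added 1. All 10 members passed the filter. Alternatives used edgeR 4.0.16, DESeq2 1.42.0 and limma-voom on recovered reads, other filters, pseudocounts and scalings, a block for the replicate number, and fits that omitted a library. The functions were tested on simulated counts, where limma recovered 22% of 1.2-fold and 73% of 1.5-fold changes. The changed genes were drawn from all with a mean of at least 50 reads, so these shares are not those of the abundant members. A gene that did not pass may therefore have changed by such an amount where its interval allows it. For the 8 abundant members not called, the intervals ran from 0.873-fold to 1.21-fold and did not reach 1.5-fold. No pair of replicates agreed within sampling noise (chi-square per gene 3.50 to 6.78), so all 6 libraries were kept. The limma intervals rest on the spread between libraries, whereas the 3-read limit for a count of 0 covers counting error only.

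The members, lists and tests were chosen with earlier results of these data known. Named genes were the 10 members, called genes of each list, paralogs, neighbours and the 3 genes most like a called member. SOX11, KIT, CD68, CSF3R, AZU1, ATF4, ETV6, CSF1R, IL6R, ELANE, IKZF1 and the untested granule genes were named after their values were seen. Motifs were likewise chosen afterwards. CEBPD and SPI1 had no start sequence in the search.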

Additional observations from a re-analysis of the deposited data

How the results depend on the processing

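Across the 19 alternatives, SLC2A3 and SOX4 were higher and called each time. The count of called members was 1 in 18 of them and 2, SOX4 and RUNX1, without both libraries labelled replicate 2. That fit, the GC trend removal and DESeq2 without independent filtering were chosen after seeing the data. All genes called, 194 higher and 224 lower, became 297 higher with edgeR and relative log expression factors, 343 higher and 441 lower with DESeq2 and its default filtering, 322 and 417 with a filter of 50, 144 lower with a pseudocount of 0.1, and 339 higher against 286 lower with the GC trend removed. Higher calls also outnumbered lower ones without empty vector replicate 3 (121 against 100), SLC2A3 replicate 2 (157 against 140) and SLC2A3 replicate 3 (100 against 88), so the balance of directions was not stable. edgeR with TMM factors called 285 higher and 328 lower. Leaving out 1 library gave 100 to 222 higher, 88 to 244 lower and 5 to 9 called genes in the pathway lists, with fewer samples. Those lists held 15 called genes with DESeq2 and 14 with a filter of 50, against 9. Among genes that did not pass, the log2 fold change of CEBPA was -0.0745 and that of CEBPB -0.0186 without both libraries labelled replicate 2. Leaving out 1 library, it ran from -0.0508 to 0.1526 for CEBPA and from -0.016 to 0.0788 for CEBPG, both lowest without SLC2A3 replicate 2. It ran from -0.1515 to 0.0507 for CBFB, positive without SLC2A3 replicate 1, and from -0.1318 to 0.0976 for MYBL1, positive without empty vector replicate 2 (0.0976) and SLC2A3 replicates 1 (0.0291) and 3 (0.016). For each of these the cause was not tested. Libraries with the same number in both groups did not deviate together (r = -0.079, -0.0022 and -0.0038 for numbers 1, 2 and 3), so no pairing was assumed. A replicate block gave 167 genes higher, 196 lower, 9 in the pathway lists, 1 member and a log2 change of 0.28 for SOX4. TMM scaling gave a median over all genes of -0.00044 on the log2 scale. Low reads limit CEBPE, LINC01436 and GFI1B.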
